A study of Mus musculus with 9 samples.

Results

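The genes of glutathione synthesis and use were described here in embryonic mouse lenses that lacked the small Maf proteins Mafg and Mafk. The members were 10 genes, chosen by symbol with earlier results of these data known: *Gclm*, *Gclc*, *Gss*, *Gsr*, *Gpx1*, *Gpx4*, *Gsta4*, *Gstm1*, *Gstp1* and *Glrx*. Each was found on 1 entry of the expression table, which held 15820 entries with a gene symbol and 22013 entries in all. Lenses of E16.5 (embryonic day) were profiled by RNA-seq in 3 genotypes, with 3 libraries per genotype and 8 lenses pooled in each library. The control lenses were *Mafg*+/-:*Mafk*+/-, so that the controls had already lost 1 allele of each gene. The compound knockout (KO) lenses were *Mafg*-/-:*Mafk*+/- and the double KO lenses were *Mafg*-/-:*Mafk*-/-. The alleles were germline alleles, carried by every cell of the embryo and not only by the lens, and the labels name no other agent or treatment. The study asked which lens genes are misexpressed when the small Maf proteins are lost.

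Glutathione is a tripeptide of glutamate, cysteine and glycine, and the lens is known for its very high glutathione content, which keeps crystallins and other proteins of the long-lived fiber cells reduced. It is built in a pair of steps, by glutamate-cysteine ligase and then by glutathione synthetase, is used by peroxidases, transferases and glutaredoxins, and is returned to its reduced form by glutathione reductase with NADPH. Small Maf proteins have no activation domain of their own; they pair with CNC proteins such as Nfe2l2 (Nrf2), an activator of glutathione genes, or with Bach proteins, which repress, at DNA elements called antioxidant response elements or Maf recognition elements.

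The DNA just before the start sites of the members is shown first, because these elements are what small Maf dimers bind. The 250 bases before the start of the canonical transcript of each member were read from the GRCm39 genome with GENCODE mouse release 39, and the letters TGACNNNGC (the core of the antioxidant response element) and TGANTCA (the core shared by Maf and AP-1 elements) were searched on both strands. The patterns can overlap in their letters, but none of the 10 windows held both. Of 21738 windows of this length before protein-coding genes, 9.68% held TGACNNNGC and 6.18% held TGANTCA. *Gclm* was the 1 member with the first pattern and *Gsta4* and *Glrx* were the 2 members with the second. A match in these windows is a description of the letters and not a site of binding, and the other 7 windows lack only these letters. Bases further upstream were not searched, and a link between these letters and the expression values was not tested. The windows of the ligase subunit genes *Gclm* and *Gclc* are printed whole, and the matches of *Gsta4* and *Glrx* with 11 bases on either side. Capitals mark the matching letters, all sequences run 5′ to 3′ on the strand of the gene, and all 4 genes lie on the plus strand. The windows are chr3:122038876-122039125 for *Gclm* and chr9:77661547-77661796 for *Gclc*, and the shorter stretches are chr9:78099132-78099160 for *Gsta4* and chr13:75987895-75987923 for *Glrx*.
Gclm: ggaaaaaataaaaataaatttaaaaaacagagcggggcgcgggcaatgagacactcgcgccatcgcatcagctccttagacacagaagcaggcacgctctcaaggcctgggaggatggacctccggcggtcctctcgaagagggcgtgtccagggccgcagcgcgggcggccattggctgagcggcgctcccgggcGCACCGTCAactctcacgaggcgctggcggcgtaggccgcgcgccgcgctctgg
Gclc: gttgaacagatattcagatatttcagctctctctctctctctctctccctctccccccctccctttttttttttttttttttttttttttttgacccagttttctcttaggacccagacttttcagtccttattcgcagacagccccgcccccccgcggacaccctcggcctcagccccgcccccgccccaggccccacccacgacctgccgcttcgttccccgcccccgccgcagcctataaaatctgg
Gsta4: gtactcagtaaTGAGTCAgcgaaaacttt
Glrx: ctaggaagtacTGACTCAtaccaaaatga
The *Gclm* match reads TGACGGTGC on the minus strand, GCACCGTCA on the strand of the gene, and lies 54 to 46 bases before the start. The *Gclc* window held neither pattern. Exons of other *Gsta4* transcripts overlap the 250 bases before its canonical start. Summed over these exons the overlap is 156 bases, in which a base in more than 1 exon counts again. TGAGTCA in *Gsta4* lies 86 to 80 bases before the start and TGACTCA in *Glrx* lies 68 to 62 bases before it.

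The values are CPM, read counts per library size, that the authors scaled for library composition, here called normalized CPM. The read depth behind them is unknown, so no counting error could be given. Summed over all entries the values came to 1036870 to 1131184 in the control, 728036 to 1022858 in the compound KO and 977149 to 1081318 in the double KO libraries. The targeted genes went with the labels. *Mafg* was at 112.9, 120.7 and 134.5 in the control libraries, at 10.1, 21.0 and 24.1 in the compound KO and at 24.6, 21.2 and 26.2 in the double KO libraries. *Mafk* was at 5.2, 6.3 and 5.6 in the control, at 4.3, 5.3 and 4.8 in the compound KO and at 0.6, 0.0 and 0.3 in the double KO libraries. The summed value of the 8 lens epithelium markers was 6454.9 to 7092.1 in control, 2645.6 to 5497.2 in compound KO and 4937.9 to 5804.4 in double KO libraries. This sum was lower in both KO genotypes without overlap, but most of it came from *Col4a1* and *Cryab*, with control means of 3263 and 2757. By gene, 2 of the 8 were lower without overlap in double KO lenses and 0 higher, against 15.8% of all entries. In compound KO lenses 5 were lower and 3 higher without overlap, against 23.9% of all entries. Compound KO replicate 1 stood apart. The summed value of the 10 lens fiber markers in the table was 38283 in that library, against 97125 and 100997 in the other two compound KO libraries, 75840 to 114406 in the double KO and 106617 to 125022 in the control libraries. The 10 markers of periocular mesenchyme and fibroblasts summed to 2303 in it, against 270.7 and 195.2 in compound KO replicates 2 and 3. Their sums were 178.7 to 214.8 in control and 362.7, 195.1 and 283.8 in double KO libraries. Most of the control sums came from *Pdgfra*, at 156.3 to 172.2 in control and at most 134.7 in compound KO libraries. Against control, 5 of the 9 mesenchyme markers tested were higher and 1 lower without overlap in compound KO lenses. In double KO lenses all 9 overlapped the controls, with a median log2 fold change of 1.39. In compound KO replicate 1 the neural retina, retinal pigment epithelium, skeletal muscle and surface epithelium sums were 640.5, 685.3, 411.3 and 270.6. No other library exceeded 199.7, 32.4, 99.5 and 14.2 for these. Each log2 fold change that involves compound KO lenses is therefore given with and without this library. Erythroid markers also moved with genotype: 9 of 13 were in the table, and their sum was 1171.7 to 1640.9 in control, 1426.9 to 2841.2 in compound KO and 2340.9 to 3882.9 in double KO libraries. In whole lenses, fewer cells of a type and less RNA per cell cannot be told apart.

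**Figure D1:**
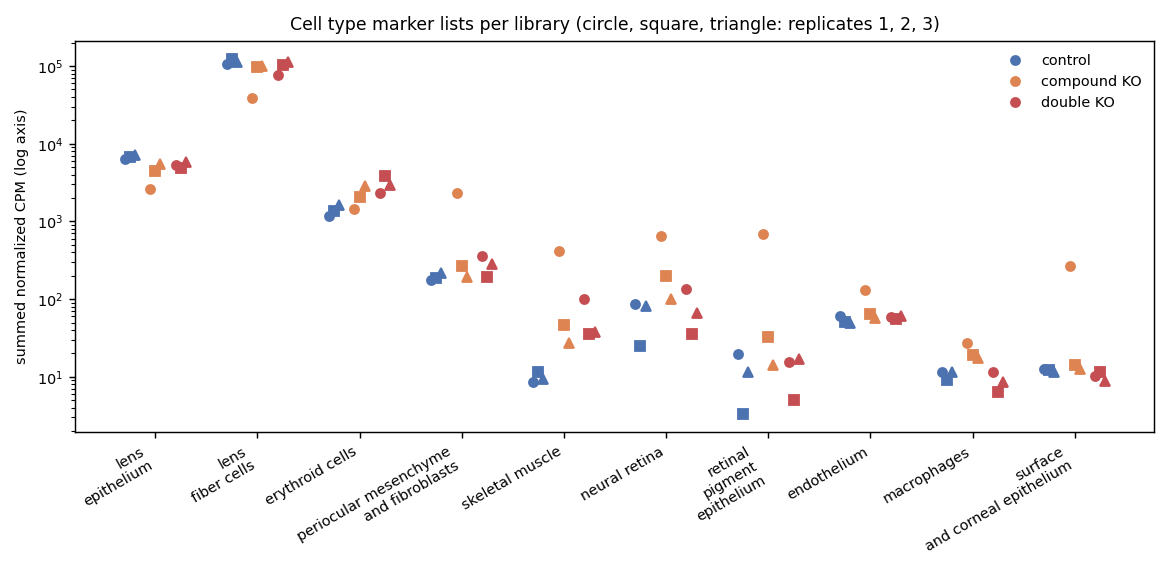
Summed normalized CPM (log axis) of the marker genes of 10 cell types in each of the 9 libraries; colours are genotypes and symbols are replicate numbers. Compound KO replicate 1 (orange circle) has the lowest lens fiber sum, 38283, and the highest mesenchyme sum, 2303.

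Per kilobase of the canonical transcript, which allows levels to be compared between genes, the members fell into a high and a low tier in control lenses. *Gstp1*, a pi-class transferase that joins glutathione to electrophiles, was at 189 ± 10.5 normalized CPM per kb (SD, n = 3), *Gss*, glutathione synthetase, at 120 ± 89.7, *Gstm1*, a mu-class transferase, at 99.2 ± 9.42, *Gpx1*, the main cytosolic glutathione peroxidase, at 83.8 ± 23.9, and *Gpx4*, the peroxidase that reduces lipid hydroperoxides in membranes, at 80.2 ± 5.29. Within this tier only *Gstp1* lay above *Gstm1*, *Gpx1* and *Gpx4* in every library, and *Gstm1* above *Gpx4*. The ranges of *Gpx1* (56.8 to 102) and *Gss* (67.7 to 223) overlapped those of their neighbours. The low tier began with *Gsr*, glutathione reductase, at 9.71 ± 0.169 normalized CPM per kb, followed by the ligase subunits *Gclc* at 8.17 ± 0.121 and *Gclm* at 7.69 ± 0.245, by *Gsta4*, a transferase for lipid aldehydes such as hydroxynonenal, at 5.71 ± 1.20, and by *Glrx*, glutaredoxin, at 1.23 ± 0.0850. The ranges of *Gsr*, *Gclc*, *Gclm*, *Gsta4* and *Glrx* did not overlap from 1 to the next. In double KO lenses the order of the low tier changed at 1 gene: *Gclm* was at 16.2 ± 0.679 normalized CPM per kb, above *Gsr* at 10.3 ± 1.05 and *Gclc* at 9.21 ± 0.500, with no overlap.

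Between double KO and control lenses, *Gclm* was the 1 member that passed the test, and it rose to about double its control level. A gene was called where limma on log2(value + 1), adjusted over all 14122 entries tested, gave an adjusted p no higher than 0.05 together with a difference of 1.5-fold or more. All 10 members were tested, and 1 of 10 was called, against 0.361% of all entries. At an unadjusted p of at most 0.05 there were 3 members, *Gclm* and *Gclc* higher and *Gstm1* lower, against 9.97% of all entries. The groups did not overlap for 4 members, *Gclm*, *Gclc* and *Glrx* higher and *Gstm1* lower, against 15.8% of all entries. The median log2 fold change of the members was 0.09, and that of all entries tested was 0.01.

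**Figure D2:**
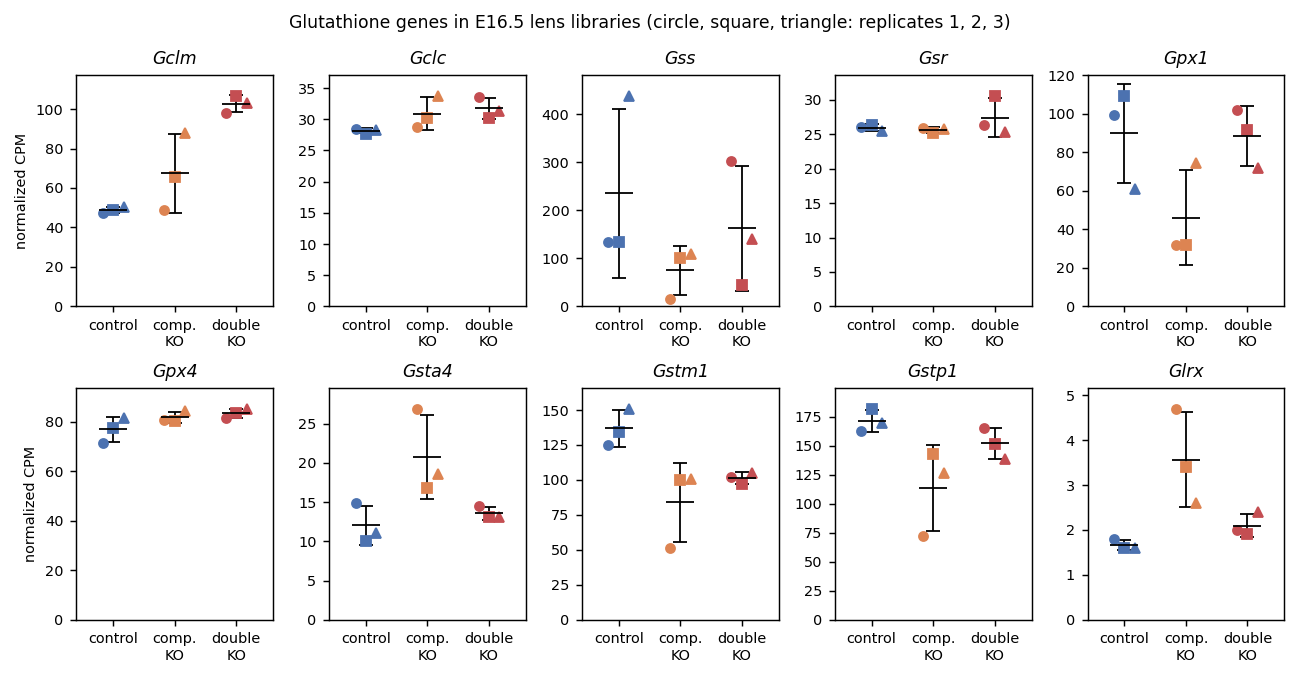
Normalized CPM of the 10 members in each library, by genotype (comp. KO, compound KO); points are libraries, horizontal lines are group means and bars are SD, n = 3. The double KO libraries of *Gclm* sit between 98.2 and 106.8, above all control and compound KO libraries, while *Gss* ranges from 15.7 to 439.3.

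*Gclm* encodes the modifier subunit of glutamate-cysteine ligase, which lifts the activity of the enzyme and eases its inhibition by glutathione. It lies on the plus strand at chr3:122039126-122065061, and the start of its canonical transcript of 7 exons follows the window printed above. Its values were 47.2, 49.0 and 50.3 normalized CPM in control, 48.6, 65.4 and 88.1 in compound KO and 98.2, 106.8 and 103.0 in double KO libraries. The control libraries were low and close together, the double KO libraries were all high, and the compound KO libraries were spread between them. The mean was 48.8 ± 1.56 (SD, n = 3) in control and 103 ± 4.31 in double KO lenses. The log2 fold change of double KO against control was 1.06 (SE 0.05, 95% interval 0.93 to 1.19), or 2.08-fold, with an adjusted p of 0.0023 in limma. In 1 fit of all 9 libraries its adjusted p was 0.16 and the call was lost. With any 1 library left out the log2 fold change was 1.03 to 1.09 and the adjusted p at most 0.02.

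In compound KO lenses *Gclm* did not pass the test. Its mean was 67.4 ± 19.8 normalized CPM (SD, n = 3), the log2 fold change against control was 0.42 (95% interval -0.12 to 0.95) and the adjusted p was 0.481 in limma. The lowest compound KO value, 48.6, was that of replicate 1 and lay within the control range. Without that library the log2 fold change was 0.63 (0.26 to 0.99, adjusted p = 0.276 in limma). Double KO lenses were higher than compound KO lenses by 0.64 on the log2 scale (0.11 to 1.17), with no overlap, an unadjusted p of 0.0259 and an adjusted p of 0.665 in limma, so that difference was not called. Without compound KO replicate 1 it was 0.43 (0.06 to 0.80).

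The erythroid markers were also higher in double KO than in control lenses, 8 of the 9 tested without overlap. Skeletal muscle markers were higher without overlap for 8 of the 9 tested as well, where 15.8% of all entries did not overlap. The muscle sums were 8.7 to 11.5 in control and 36.0 to 99.5 in double KO libraries. Of the 9 muscle markers tested 1 was called, *Myod1*, against 0.361% of all entries. It was at 0.0 to 0.2 normalized CPM in control and 6.2 to 9.2 in double KO libraries (adjusted p = 0.00386 in limma). The part of the erythroid and muscle markers in the *Gclm* result was not tested. Within the span of *Gclm* the annotation also places a processed pseudogene on the same strand, *Gm6061*, at 162.6, 172.5 and 164.0 normalized CPM in control and 161.0, 175.8 and 167.9 in double KO libraries. No stretch of the read length in the canonical *Gclm* transcript was shared with a transcript of another gene.

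*Gclc* encodes the catalytic subunit of the same ligase, and it changed far less. It lies on the plus strand at chr9:77661797-77701770. Its values were 28.5, 27.7 and 28.3 normalized CPM in control, 28.7, 30.2 and 33.8 in compound KO and 33.6, 30.2 and 31.4 in double KO libraries. Every compound KO and double KO library was above every control library, the nearest pair being 28.5 and 28.7. Double KO lenses had a log2 fold change of 0.17 (SE 0.06, 0.01 to 0.32), with an unadjusted p of 0.0379 and an adjusted p of 0.463 in limma. In compound KO lenses it was 0.13 (-0.10 to 0.35, adjusted p = 0.527 in limma), and 0.18 without replicate 1. Between double KO and compound KO lenses it was 0.04 (-0.20 to 0.28), -0.011 without compound KO replicate 1, and -0.14 where values were scaled by library size only.

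The ratio of *Gclm* to *Gclc* within a library does not depend on how the library was scaled, so it was compared directly. The ratio of the values was 1.66, 1.77 and 1.78 in control, 1.69, 2.17 and 2.61 in compound KO and 2.92, 3.54 and 3.28 in double KO libraries. Each double KO ratio was above each control and compound KO ratio. The mean was 1.73 ± 0.0677 (SD, n = 3) in control, 2.16 ± 0.457 in compound KO and 3.25 ± 0.308 in double KO lenses. The double KO ratio was 1.87-fold the control ratio, a log2 difference of 0.90, with a two-sided exact permutation p of 0.1, the smallest that 3 libraries against 3 allow. For compound KO lenses the log2 difference was 0.29 with an exact permutation p of 0.3, and it was 0.45 without compound KO replicate 1. Of 2 such tests neither could reach 0.05.

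**Figure D3:**
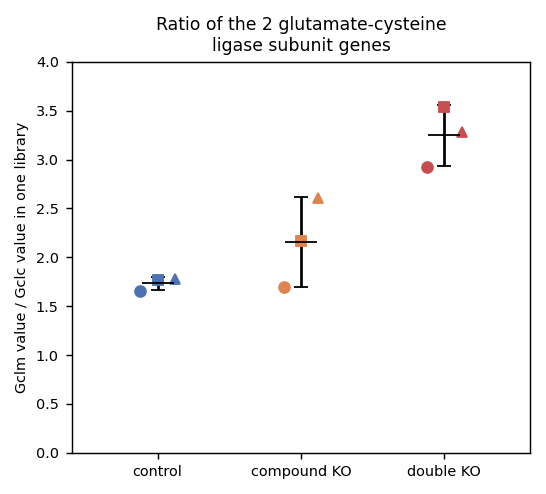
Ratio of the *Gclm* to the *Gclc* value in each library, by genotype; points are libraries, horizontal lines are means and bars are SD, n = 3. The double KO ratios lie between 2.92 and 3.54, above the control ratios of 1.66 to 1.78.

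*Gss*, which adds glycine in the last step of synthesis, was the most variable member. The gene is on the minus strand at chr2:155405096-155455505. Its values were 133.3, 133.8 and 439.3 normalized CPM in control, 15.7, 100.2 and 109.4 in compound KO and 302.9, 44.2 and 141.0 in double KO libraries. The highest and the second highest value came from a control and a double KO library, and the groups of these genotypes overlapped throughout. The log2 fold change of double KO against control was -0.68 with a 95% interval of -2.72 to 1.37 and an adjusted p of 0.844 in limma, and it was 0.06 without double KO replicate 2. All 3 compound KO libraries lay below all control libraries, with a log2 fold change of -1.81 (-4.00 to 0.39, adjusted p = 0.481 in limma), and of -0.92 (-2.49 to 0.65) without replicate 1. Between double KO and compound KO lenses the log2 fold change was 1.13 (-1.34 to 3.60), and 0.24 (-1.95 to 2.43) without compound KO replicate 1. These intervals leave a change of *Gss* in either direction undetermined. The span of *Gss* overlaps *Acss2* and *Myh7b* on the other strand; *Acss2* was at 5.3 to 8.5 and *Myh7b* at 3.1 to 20.1 normalized CPM over the 9 libraries. The libraries kept strand, but whether counting used it is not given in the sources used here.

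*Gsr*, which returns oxidized glutathione to the reduced form, varied little in control and compound KO lenses. Its position is chr8:34142551-34188192 on the plus strand. Its values were 26.0, 26.4 and 25.5 normalized CPM in control, 25.9, 25.1 and 25.8 in compound KO and 26.3, 30.6 and 25.3 in double KO libraries. A single library, double KO replicate 2, stood above the rest, and the 3 groups overlapped. On the log2 scale the fold change was 0.07 (-0.14 to 0.28) in double KO against control and 0.09 (-0.16 to 0.34) in double KO against compound KO lenses. It was -0.02 (-0.21 to 0.17) in compound KO against control lenses. Without compound KO replicate 1 the values that involve compound KO were 0.10 against double KO and -0.03 against control. With scaling by library size only, which moved the median of all entries to 0.24 in compound KO against control and to -0.17 between double KO and compound KO, they became -0.09 against double KO and 0.23 against control, so these signs depended on the scaling.

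The peroxidase *Gpx1* differed between its groups mainly in compound KO lenses. It lies on the plus strand at chr9:108216102-108217546. Its values were 99.2, 109.5 and 60.9 normalized CPM in control, 32.1, 31.7 and 74.4 in compound KO and 102.0, 91.8 and 71.7 in double KO libraries. Compound KO replicates 1 and 2 were the lowest of the 9 libraries, but replicate 3 lay within the control range. For compound KO against control the log2 fold change was -1.02 (-2.02 to -0.03), with an unadjusted p of 0.0458 and an adjusted p of 0.481 in limma. Without replicate 1 it was -0.83 (-2.02 to 0.37, unadjusted p = 0.132 in limma). Double KO lenses were at the control level, with a log2 fold change of 0.01 (-0.62 to 0.63) that turned to -0.25 without control replicate 3. Against compound KO lenses the double KO value was 1.03 higher on the log2 scale (0.14 to 1.92, unadjusted p = 0.0305, adjusted p = 0.665 in limma), and 0.83 without compound KO replicate 1. *Gpx1* is also abundant in red blood cells. Erythroid marker sums were 1171.7 to 1640.9 in control, 1426.9 to 2841.2 in compound KO and 2340.9 to 3882.9 in double KO libraries. Their part in the *Gpx1* values was not tested.

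*Gpx4*, which guards cells against lipid peroxidation, stayed within a narrow band. The gene is on the plus strand at chr10:79883000-79892273. Its values were 71.6, 77.4 and 81.7 normalized CPM in control, 80.9, 80.3 and 84.4 in compound KO and 81.7, 83.5 and 85.2 in double KO libraries. The groups overlapped or touched at 81.7. On the log2 scale the difference was 0.12 (-0.03 to 0.27) in double KO and 0.09 (-0.10 to 0.28) in compound KO against control lenses, and the latter was 0.10 without replicate 1. Between double KO and compound KO lenses it was 0.03 (-0.14 to 0.19), 0.02 without compound KO replicate 1, and -0.16 with scaling by library size only. Reads of *Gpx4* are uncertain in their assignment, since 55.3% of its read-length stretches also occur in transcripts of *Gpx4-ps1*, *Gpx4-ps2* or *Gm63662*.

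**Figure D4:**
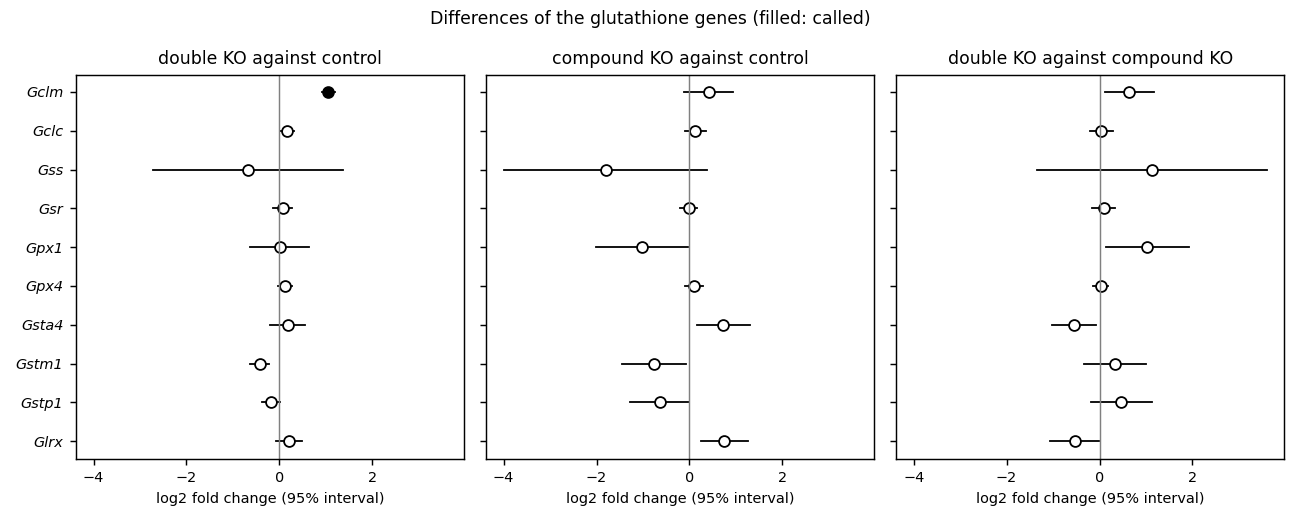
Log2 fold changes of the 10 members in the 3 comparisons of genotypes, with 95% intervals from limma; the filled point is the 1 call. *Gclm* in double KO against control lenses is at 1.06 with an interval of 0.93 to 1.19, and the *Gss* intervals are the widest in each panel.

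The transferases did not move together. *Gstm1* lies on the minus strand at chr3:107919380-107925380. Its values were 125.1, 134.6 and 150.8 normalized CPM in control, 51.5, 99.7 and 100.7 in compound KO and 102.0, 97.1 and 105.1 in double KO libraries. All 6 libraries without *Mafg* were below all 3 controls. The log2 fold change of double KO against control was -0.43 (SE 0.08, -0.62 to -0.23), with an unadjusted p of 0.00206 and an adjusted p of 0.178 in limma, so *Gstm1* was not called. In compound KO lenses it was -0.76 (-1.45 to -0.07, adjusted p = 0.481 in limma), and -0.44 (-0.68 to -0.20, adjusted p = 0.256) without replicate 1. The double KO and compound KO values overlapped, with a log2 fold change of 0.33 (-0.34 to 1.005), and of 0.02 (-0.13 to 0.16) without compound KO replicate 1. In the canonical transcript 6.88% of the read-length stretches were shared with *Gstm2-ps1*, *Gm8834* or *Gstm3*.

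*Gstp1* had the highest level per kilobase of the members. Its position is chr19:4085405-4088068 on the minus strand. Its values were 162.9, 181.6 and 169.2 normalized CPM in control, 72.2, 142.5 and 126.0 in compound KO and 165.4, 151.3 and 138.7 in double KO libraries. The compound KO libraries were all below the controls, and the double KO libraries overlapped the controls at 165.4. Its log2 fold change was -0.64 (-1.29 to 0.00, unadjusted p = 0.0497, adjusted p = 0.481 in limma) in compound KO lenses, and -0.35 (-0.56 to -0.14, unadjusted p = 0.00876 in limma) without replicate 1. In double KO lenses it was -0.17 (-0.37 to 0.02, adjusted p = 0.561 in limma). Between double KO and compound KO lenses it was 0.47 (-0.18 to 1.12), and 0.18 (-0.09 to 0.44) without compound KO replicate 1. The near-identical genes *Gstp2* and *Gstp-ps* held 47.1% of its read-length stretches, so its reads could have been split among them.

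*Gsta4* was higher in compound KO than in either of the other genotypes. The gene spans chr9:78090056-78117763 on the plus strand. Its values were 14.9, 10.1 and 11.1 normalized CPM in control, 26.9, 16.8 and 18.6 in compound KO and 14.5, 13.1 and 13.1 in double KO libraries. The compound KO libraries did not overlap those of the other genotypes, and replicate 1 was the highest. Compound KO against control had a log2 fold change of 0.73 (0.16 to 1.29, unadjusted p = 0.0199, adjusted p = 0.481 in limma), and 0.54 (0.05 to 1.02) without replicate 1. Double KO lenses were lower than compound KO lenses by a log2 fold change of -0.55 (-1.02 to -0.08, unadjusted p = 0.0285, adjusted p = 0.665 in limma), and of -0.36 (-0.62 to -0.10) without compound KO replicate 1. Against control lenses the double KO value was 0.18 (-0.20 to 0.55). The 6 macrophage markers in the table were also highest in compound KO libraries, with sums of 17.4 to 27.0 against 9.0 to 11.5 in control and 6.4 to 11.7 in double KO libraries. Neural retina sums were 101.2 to 640.5 in compound KO, against 24.7 to 87.1 in control libraries. In double KO libraries they were 35.9 to 133.4, which overlapped the compound KO range. Their part in the *Gsta4* and *Glrx* values was not tested.

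*Glrx*, which removes glutathione from protein thiols, was the member with the lowest level, and like *Gsta4* it had its highest group mean in compound KO and its lowest in control lenses. It lies on the plus strand at chr13:75987974-76002178. It was at 1.8, 1.6 and 1.6 normalized CPM in control, at 4.7, 3.4 and 2.6 in compound KO and at 2.0, 1.9 and 2.4 in double KO libraries. The 3 groups did not overlap, with control lowest and compound KO highest. On the log2 scale compound KO exceeded control by 0.75 (0.25 to 1.26, unadjusted p = 0.0111, adjusted p = 0.481 in limma), and 0.58 (0.21 to 0.95) without replicate 1. In double KO against control lenses it was 0.21 (-0.06 to 0.49). Double KO was below compound KO by -0.54 on the log2 scale (-1.06 to -0.02, unadjusted p = 0.0455, adjusted p = 0.665 in limma), and by -0.36 (-0.78 to 0.05) without compound KO replicate 1. At these levels the added 1 makes the log2 fold changes smaller than those of the values, and the table rounds to 1 decimal.

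Over the members as a set, no member was called in compound KO against control lenses, where limma called 0% of the 14348 entries tested. Even *Mafg*, at 10.1 to 24.1 against 112.9 to 134.5, had an adjusted p of 0.188 in this comparison, and of 0.0174 without compound KO replicate 1. At an unadjusted p of at most 0.05 there were 5 of 10 members against 9.3% of all entries, *Glrx* and *Gsta4* higher and *Gpx1*, *Gstm1* and *Gstp1* lower. Without compound KO replicate 1 there were 5 against 11.5% of all entries, *Gclm*, *Glrx* and *Gsta4* higher and *Gstm1* and *Gstp1* lower, so that *Gclm* entered and *Gpx1* left. The groups did not overlap for 6 members, *Gclc*, *Glrx* and *Gsta4* higher and *Gss*, *Gstm1* and *Gstp1* lower, against 23.9% of all entries. Compound KO replicate 1 was the lowest of the 9 libraries for *Gss*, *Gstm1* and *Gstp1* and the highest for *Gsta4* and *Glrx*. This is the library with the low lens fiber and high mesenchyme sums, whose part in these differences was not tested. With double KO set against compound KO, limma called 0 of 10 members, against 0.0139% of the 14402 entries tested. There, 4 members had an unadjusted p of at most 0.05 against 4.87% of all entries, *Gclm* and *Gpx1* higher and *Gsta4* and *Glrx* lower, and without compound KO replicate 1 there were 2, *Gclm* and *Gsta4*, against 5.36%. The groups did not overlap for 3 members, *Gclm* higher and *Gsta4* and *Glrx* lower, against 15.6% of all entries. The comparisons share libraries and are set side by side only.

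Around the members, 87 other genes of glutathione metabolism were listed, of which 71 were in the table. Of 65 tested between double KO and control lenses, 1 was called, *Me1*, which was higher, and none lower, against 0.361% of all entries. In 1 fit of all 9 libraries limma called 0 of 65, and 21 of all 14122 entries. At an unadjusted p of at most 0.05 that fit had 4 of 65, against 5.42% of all entries. At that p 8 were higher and 3 lower between these 6 libraries, against 9.97% of all entries in either direction, and the median log2 fold change was 0.03. *Me1*, the cytosolic malic enzyme that makes NADPH, was at 31.4, 32.5 and 33.4 normalized CPM in control, 28.8, 53.6 and 47.8 in compound KO and 54.0, 55.6 and 58.3 in double KO libraries. As for *Gclm*, the double KO libraries were all high, while compound KO replicate 1 lay below the controls. In double KO lenses the log2 fold change was 0.77 (SE 0.05, 0.63 to 0.90), with an adjusted p of 0.00934, and in compound KO lenses 0.36 (-0.22 to 0.95), with an adjusted p of 0.502 in limma. The double KO call was lost in 1 fit of all 9 libraries, with an adjusted p of 0.493, and without control replicate 3, with an adjusted p of 0.0506 in limma. Without compound KO replicate 1 the compound KO value was 0.63 (0.43 to 0.82, adjusted p = 0.125 in limma). None of the others was called, as in the compound KO comparison, where 0 of 67 were called by limma and 3 were higher and 2 lower at an unadjusted p of at most 0.05, against 9.3% of all entries. With double KO set against compound KO, limma called 0 of 68, with 0 higher and 3 lower at that p, against 4.87% of all entries.

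Of the cystine and cysteine supply genes, 9 of 11 were tested in double KO lenses, with 2 higher and 1 lower at an unadjusted p of at most 0.05 in limma, where 9.97% of all entries passed. *Slc7a11*, the cystine transporter of system xc-, was at 35.6, 34.2 and 33.8 normalized CPM in control, 31.4, 46.1 and 46.7 in compound KO and 42.0, 46.5 and 40.0 in double KO libraries. Its log2 fold change was 0.30 (0.12 to 0.48, adjusted p = 0.268 in limma) in double KO lenses, where the libraries were all above the controls. *Slc1a5*, a carrier of glutamine and other neutral amino acids, was at 7.6 ± 0.557 in control, 12.4 ± 2.89 in compound KO and 11.4 ± 2.51 in double KO lenses (SD, n = 3). Its log2 fold change was 0.51 (0.11 to 0.91, adjusted p = 0.383 in limma) in double KO and 0.62 (0.17 to 1.07, adjusted p = 0.481) in compound KO lenses, and the latter was 0.71 without replicate 1. *Slc1a4*, a neutral amino acid carrier, had a log2 fold change of -0.23 (-0.37 to -0.09, adjusted p = 0.275 in limma) in double KO lenses.

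*Prdx6*, a peroxiredoxin that draws on glutathione, was one of 4 other peroxidase genes tested. It was at 33.6, 35.5 and 40.4 normalized CPM in control, 72.7, 46.3 and 55.1 in compound KO and 60.7, 48.1 and 49.8 in double KO libraries, all 6 above the controls. The log2 fold change was 0.52 (0.23 to 0.81, adjusted p = 0.25 in limma) in double KO and 0.63 (0.19 to 1.08, adjusted p = 0.481) in compound KO lenses, and the latter was 0.46 without replicate 1. Among 15 other transferases tested in double KO lenses, 2 were higher and 0 lower at an unadjusted p of at most 0.05 in limma, against the same 9.97%. *Gstm7* was at 29.5, 29.9 and 31.0 in control and 36.5, 36.3 and 35.3 in double KO libraries, a log2 fold change of 0.25 (0.12 to 0.38, adjusted p = 0.215 in limma), opposite in sign to its mu-class relative *Gstm1*. In compound KO libraries *Gstm7* was at 23.5, 28.7 and 35.7, on both sides of the controls.

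Of 9 genes of glutathione breakdown and the gamma-glutamyl cycle tested in double KO lenses, 1 was higher and 1 lower at an unadjusted p of at most 0.05 in limma. The share of all entries was 9.97%. The higher gene, *Ggt5*, lay below the group mean of 10 required for naming. It was at 0.0 to 0.2 normalized CPM in control and 1.1 to 1.7 in double KO libraries (adjusted p = 0.0638 in limma). The lower gene was *Lap3*, a leucine aminopeptidase that splits cysteinylglycine. *Lap3* was at 75.7, 77.7 and 74.9 normalized CPM in control, 34.6, 61.1 and 59.4 in compound KO and 58.6, 64.3 and 61.6 in double KO libraries. Its log2 fold change was -0.30 (-0.43 to -0.18, adjusted p = 0.143 in limma) in double KO and -0.59 (-1.16 to -0.03, adjusted p = 0.481) in compound KO lenses, and all 6 libraries were below the controls. Without compound KO replicate 1 the compound KO value was -0.33 (-0.46 to -0.21). *G6pdx*, glucose-6-phosphate dehydrogenase, the entry enzyme of the pentose phosphate pathway, had a log2 fold change of -0.13 (-0.24 to -0.01, adjusted p = 0.463 in limma) in double KO lenses, against 0.77 for *Me1* in the same NADPH supply list, where 2 of 9 were higher and 1 lower at an unadjusted p of at most 0.05, against 9.97% of all entries. *Adh5*, the S-nitrosoglutathione reductase, was at 137 ± 3.52 in control, 107 ± 12.6 in compound KO and 128 ± 10.1 in double KO lenses (SD, n = 3), with a log2 fold change of -0.36 (-0.61 to -0.10, adjusted p = 0.481 in limma) in compound KO lenses, and of -0.26 without replicate 1. Of 7 glutathione transport genes tested in double KO lenses, limma called 0, against 0.361% of all entries. At an unadjusted p of at most 0.05 there were 0, against 9.97% of all entries. *Nfe2l2*, the CNC activator named above, was at 29.0, 31.4 and 31.2 in control, 22.0, 9.5 and 23.4 in compound KO and 22.5, 25.7 and 21.3 in double KO libraries. Its log2 fold change was -0.39 (-0.60 to -0.17, adjusted p = 0.251 in limma) in double KO lenses, and all 6 libraries without *Mafg* were below the controls.

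**Figure D5:**
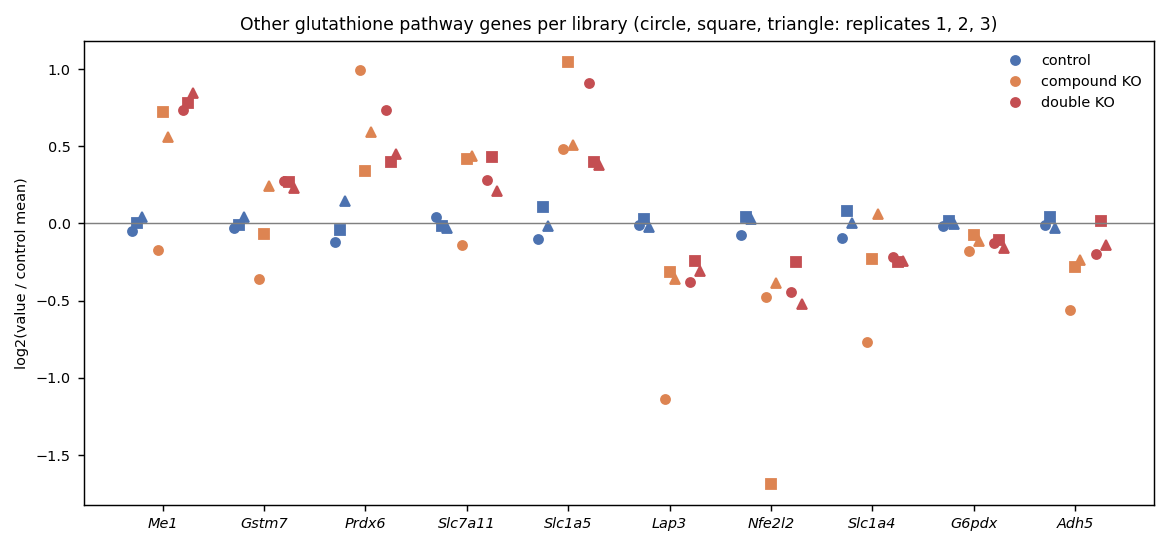
Log2 of each library's value over the control mean for 10 other genes of glutathione metabolism; colours are genotypes and symbols are replicate numbers. The double KO libraries of *Me1* are at 54.0 to 58.3 normalized CPM against a control mean of 32.4, and compound KO replicate 1 (orange circle) lies apart for *Lap3*, at 34.6 against 61.1 and 59.4 in the other compound KO libraries.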

How the data were processed

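Strand-specific paired-end libraries of E16.5 lens RNA were aligned by the authors to mm39 with HISAT2, assembled and counted per transcript with StringTie, and filtered and normalized with edgeR. Per the submitters' processing notes, Trimmomatic and Cufflinks were also used. The deposited signal values are composition-scaled CPM, rounded by the authors to 1 decimal; read depth is unknown. Each library pooled 8 lenses, so p-values measure the spread between 3 pools per genotype. The members and gene lists were chosen with earlier results of these data known. Genotypes were compared in pairs with limma 3.58.1 (R 4.3.3, intensity trend, two-sided) on log2(value + 1), over entries that had a symbol and reached 1 in 2 or more of the 6 libraries, with Benjamini-Hochberg adjustment over all of them; fold changes are on that scale. The code was tested on simulated data. Other pathway genes were named if called, or if among the 5 higher or 5 lower with the smallest unadjusted p of at most 0.05 and a group mean of at least 10, in either comparison with control. The ratio used exact permutation tests. Lengths and sequences are from GRCm39 and GENCODE release 39. No 2 libraries were identical. Alternatives were scaling, filter, pseudocount, 1 fit of all libraries, a replicate block, duplicate or unnamed entries, the trend, and leaving out each library.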

Additional observations from a re-analysis of the deposited data

How the results depend on the processing

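Over 30 member log2 fold changes and 480 alternatives, 467 kept their sign and side of the threshold, 11 changed sign and 2 lost a call. The 2 were those of *Gclm* in double KO against control lenses, where 1 fit of all 9 libraries gave an adjusted p of 0.16 and 0 members called, and the replicate block gave 0.0665 and 0 members called, each against 1; the cause was not tested. *Me1* was not called in these either, with adjusted p of 0.493 and 0.129, nor without control replicate 3, with 0.0506. The number of all entries called in that comparison was 51, and 21 with 1 fit of all 9 libraries, 10 with the replicate block, 94 with entries without a symbol tested too, and 22 to 47 with 1 library left out, the lowest without control replicate 3. In compound KO against control lenses limma called 0, with 1335 at an unadjusted p of at most 0.05, 2 with 1 fit of all 9 libraries, 22 with entries without a symbol tested too and 0 to 13 with 1 library left out, the highest without compound KO replicate 1. In double KO against compound KO lenses it was 2, and 0 where every library had to reach 1, 5 with 1 fit of all 9 libraries, 0 with the replicate block, 1 with a pseudocount of 0.1, 14 with entries without a symbol tested too and 1 to 6 with 1 library left out. With library size only, *Gsr* became 0.23 in compound KO against control, and *Gclc*, *Gpx4* and *Gsr* became -0.14, -0.16 and -0.091 in double KO against compound KO lenses. With 1 library left out, the double KO against control values ran from -0.25 to 0.17 for *Gpx1*, from -0.0091 to 0.12 for *Gsr* and from -1.32 to 0.056 for *Gss*, and those of *Gclc* in double KO against compound KO lenses from -0.011 to 0.10. None of these was called. Same-numbered libraries shared only a number: their deviations from the group means correlated from -0.106 to 0.216 over genes. With the block the *Gclm* to *Gclc* ratio kept its log2 differences of 0.90 and 0.29. Each had an exact permutation p of 0.25, from flipping the signs of the 3 differences between same-numbered libraries. That is the smallest two-sided p that 3 differences allow. The counts of members at an unadjusted p of at most 0.05, an alternative added after seeing the data, were 3, 5 and 4 in the comparisons double KO and compound KO against control and double KO against compound KO, and 2 to 3, 1 to 5 and 0 to 4 with 1 library left out. In those fits with 1 library left out, 7.63% to 9.27%, 3.97% to 15.2% and 2.4% to 10% of all entries passed. Depth could not be assessed from these values, and *Glrx*, at 1.6 to 4.7 normalized CPM, is the member closest to their rounding.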
